A study of Mus musculus with 6 samples.

Results

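The SOCS family and the transcription factors STAT3, STAT5A and STAT5B were described by 10 genes: Cish, Socs1 to Socs6, Stat3, Stat5a and Stat5b. Members were chosen by gene symbol in the platform annotation, out of 19057 genes with a named probe. No measured value served as a criterion, but earlier results of these data were known when the choice was made. The cells were primary macrophages grown from the bone marrow of wild-type c57Bl6/J males aged 10 weeks. They were kept for 12 h in a medium that the labels name MSF with a control peptide or with RI-BPI, each at 5 µM. RI-BPI is a retro-inverso peptide made to block contact of the repressor Bcl6 with its corepressors, and the labels name no allele or other agent. RNA of each group was read on 3 Illumina bead arrays, 6 in all, which the labels call technical replicates, so every p-value measures spread between arrays, and that between cultures or animals is unknown.

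SOCS proteins are the feedback brakes of cytokine receptors. A cytokine activates JAK kinases, these phosphorylate STAT proteins, and STATs enter the nucleus and switch on genes that include Cish and Socs1 to Socs3. The SOCS protein then binds the receptor or the kinase through its SH2 domain and recruits a ubiquitin ligase through its SOCS box. In macrophages STAT3 carries much of the anti-inflammatory signal of interleukin 10, STAT5 is a main transducer of GM-CSF, and SOCS3 limits STAT3 downstream of interleukin 6. Bcl6 binds DNA sequences that resemble STAT sites.

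Levels are given as log2 intensity after background correction and quantile normalisation, with the mean ± SD over n = 3 arrays. A level belongs to its probe, so levels of different genes are not compared. Median raw intensities per array lay between 45.8 and 47.4, and 12931 to 14357 of 45281 probes were detected per array, with fewer on RI-BPI (12931 to 13843) than on control arrays (13866 to 14357). Across genes, the correlation r was 0.992 to 0.996 between arrays of a peptide, and 0.945 to 0.948 between the peptides. All 10 macrophage markers that had a probe were measured. None was called higher (0) and 6 were called lower, with a summed intensity of 48898 to 53108 on control and 47195 to 48121 on RI-BPI arrays. Of markers of other cells, 1 of 9 was measured for neutrophils and their precursors (S100a8, summed 307 to 368 with control and 400 to 475 with RI-BPI), 0 of 8 for dendritic cells, 1 of 8 for lymphocytes and 1 of 8 for stroma, and their part in the results was not tested. In such bulk RNA, fewer cells of a type and less RNA per cell cannot be told apart.

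Of the 10 genes, 8 were measured, meaning that a probe was detected (detection p under 0.01) on at least 3 arrays. With RI-BPI 5 rose, all of them SOCS family genes (Cish, Socs2, Socs3, Socs4 and Socs6), and 3 fell (Socs5, Stat3 and Stat5a). Calls were made at a Benjamini-Hochberg adjusted p under 0.05 from limma over 8205 genes, of which 61.3% were called, 30.7% higher and 30.6% lower. With most genes called, a call by itself set these genes apart little. The control and RI-BPI arrays did not overlap for any of the 8, a pattern found in 64.9% of all genes, 32.5% higher and 32.3% lower. Socs2 was measured only through its RI-BPI arrays, so it had to differ to enter these counts, and 4 of the 7 genes detected in both groups rose. A called change of at least 1.5-fold was reached by Cish, Socs3 and Socs4, against 28.9% of all genes, with a gene undetected in 1 group taken at the lowest fold its signal allows.

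**Figure D1:**
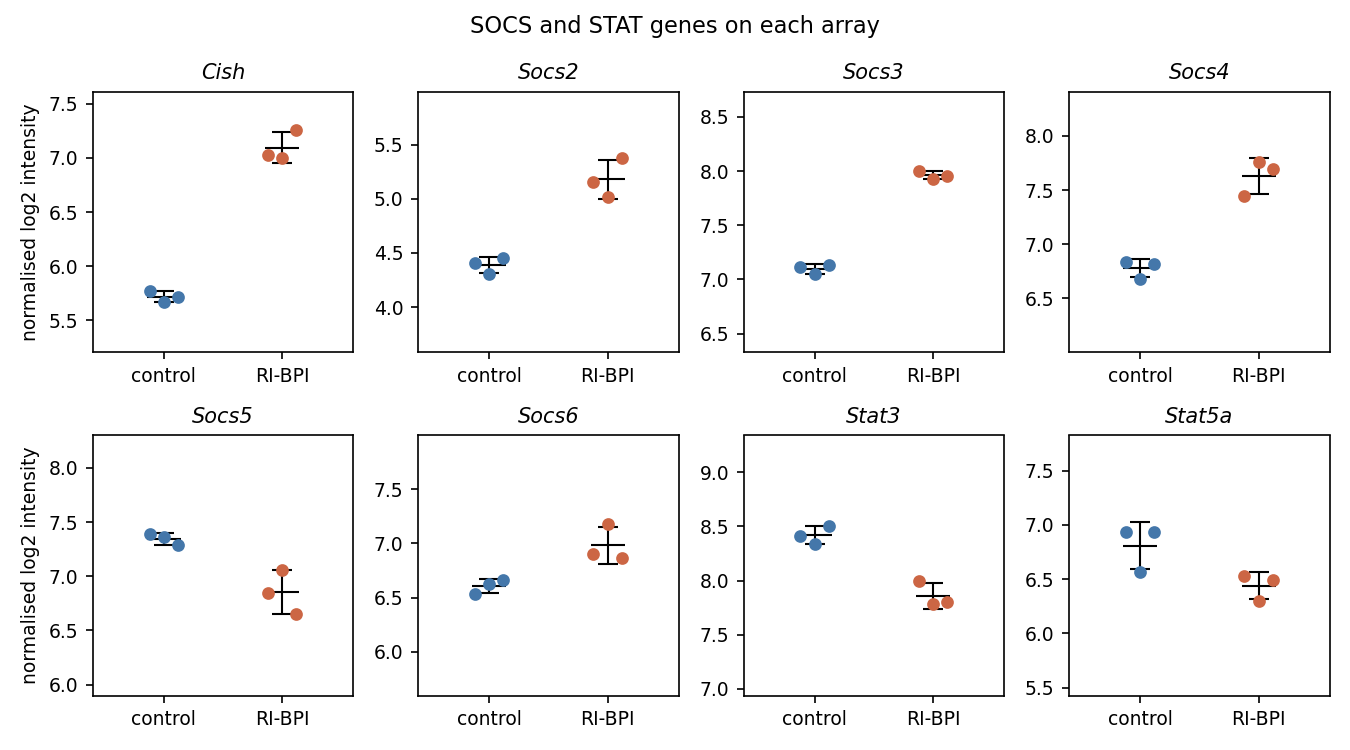
Normalised log2 intensity (y axis, every panel spanning the same height) of the 8 measured genes on each control (blue) and RI-BPI (orange) array; bars are mean ± SD, n = 3. The groups are apart in every panel, widest for Cish (5.72 against 7.09) and by the smallest gap, 0.03, for Stat5a.

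The largest change among the genes detected in both groups was in Cish, which encodes CIS, a STAT5-induced brake on cytokine and growth hormone receptors. Its probe read 5.77, 5.67 and 5.72 on the control arrays and 7.03, 7.00 and 7.26 on the RI-BPI arrays. The lowest RI-BPI array thus lay 1.23 above the highest control array. From 5.72 ± 0.05 to 7.09 ± 0.14 the rise was 1.37 ± 0.11 (SE), or 2.59-fold, with an adjusted p of 2.74e-09 from limma. In raw bead intensity the probe ran from 81.6 to 168, above the detection limit of 54.1 to 57.5 on every array. Among all genes 3.83% had a larger absolute change.

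Socs2, the closest relative of Cish and a brake on growth hormone signalling through STAT5, came up from below detection. Raw intensities of the probe used were 47.5, 46.4 and 49.6 with control, all undetected, and 63.9, 59.6 and 67.0 with RI-BPI, all detected. On the normalised scale these were 4.40, 4.31 and 4.46 against 5.16, 5.01 and 5.37. The rise was at least 1.40-fold (measured means 4.39 ± 0.08 and 5.18 ± 0.18). As Socs2 was measured only through its RI-BPI arrays, a difference was fixed by the filter and no test is given. The bound takes the lowest detected probe of each control array as the control level. The fitted log2 change of 0.79 depended on the background, with 0.43 without correction, 0.36 with an offset of 50 and 0.47 in the authors' normalised table. Another Socs2 probe was undetected on all 6 arrays.

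Socs3, the brake on gp130 receptors and STAT3, had the tightest replicates. In raw intensity it read 175, 170 and 167 with control and 296, 266 and 255 with RI-BPI. After normalisation the control arrays lay within 7.05 to 7.13 and the nearest RI-BPI array was 0.80 higher. The rise from 7.10 ± 0.04 to 7.96 ± 0.04 was 0.86 ± 0.10, or 1.82-fold (limma adjusted p = 6.61e-07). Socs1, the brake on JAKs in interferon signalling, could not be compared. Its only probe was undetected on all 6 arrays, at raw intensities of 42.3 to 50.1 and detection p-values of 0.0524 to 0.733. Its level was therefore not measurable here, which does not show that the gene was silent.

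The start regions of Cish and Socs3 are shown because they hold the letters of a STAT site. Windows from 250 bases before to 50 bases after the annotated start (RefSeq, GRCm38.p6) were searched for 7 of the 10 genes. Those of Socs2, Socs5 and Socs6 were not searched. The motif TTCNNNGAA, whose fixed letters read the same on both strands, occurred in those of Cish and Socs3 and not in those of Socs1, Socs4, Stat3, Stat5a or Stat5b. It is held by 8.3% of 32851 such mouse windows, and 0.457% hold it more than once, as Cish does. The stretches run 5′ to 3′, with the motif in capitals; that of Cish is chr9:107296559-107296678 on the plus strand and that of Socs3 is chr11:117969467-117969616 on the minus strand.
Cish: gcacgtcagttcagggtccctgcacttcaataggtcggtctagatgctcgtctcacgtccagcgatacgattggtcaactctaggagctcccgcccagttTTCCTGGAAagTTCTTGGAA
Socs3: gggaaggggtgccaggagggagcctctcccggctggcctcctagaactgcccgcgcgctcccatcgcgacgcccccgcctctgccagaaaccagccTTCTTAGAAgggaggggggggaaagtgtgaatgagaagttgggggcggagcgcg
The Cish matches lie at 1 to 9 and 12 to 20 counted from the annotated start, and the Socs3 match at -154 to -146. TTCCTAGAA, a core sequence bound by Bcl6 and a special case of the same motif, was searched on both strands. It was in none of these windows and is in 0.411% of all of them. A match describes letters in these windows and was not tested for binding.

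Socs4 and Socs5, a closely related pair whose proteins have been linked to epidermal growth factor receptor turnover, went opposite ways. Socs4 read 6.83, 6.68 and 6.82 with control and 7.44, 7.76 and 7.70 with RI-BPI. It rose from 6.78 ± 0.08 to 7.63 ± 0.17, by 0.85 ± 0.11 or 1.81-fold (limma adjusted p = 2.43e-06). A dimmer Socs4 probe rose as well, by 0.39 ± 0.12 (adjusted p = 0.00789 over 13975 probes, of which 59.5% were called, 29.1% higher and 30.5% lower).

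Socs5 read 7.39, 7.36 and 7.28 with control against 6.84, 7.06 and 6.65 with RI-BPI. All RI-BPI arrays were lower, and they spread more widely than the control arrays. It fell by 0.49 ± 0.12, from 7.34 ± 0.05 to 6.85 ± 0.20 (1.41-fold lower, limma adjusted p = 0.00109), and its other probe was undetected throughout. Within arrays the log2 difference of Socs4 minus Socs5 was 1.17, 1.26 and 1.61 above its control mean on the RI-BPI arrays. The control arrays lay at 0.01, -0.12 and 0.10 on that scale. The change in this difference was 1.35 ± 0.15 (SE, n = 3 per group). An exact two-sided permutation test over arrays gave p = 0.1, the smallest that 3 against 3 arrays allow. It was the only pair tested, as the pairs of Cish with Socs2, Socs1 with Socs3 and Stat5a with Stat5b each held a gene undetected in a whole group.

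**Figure D2:**
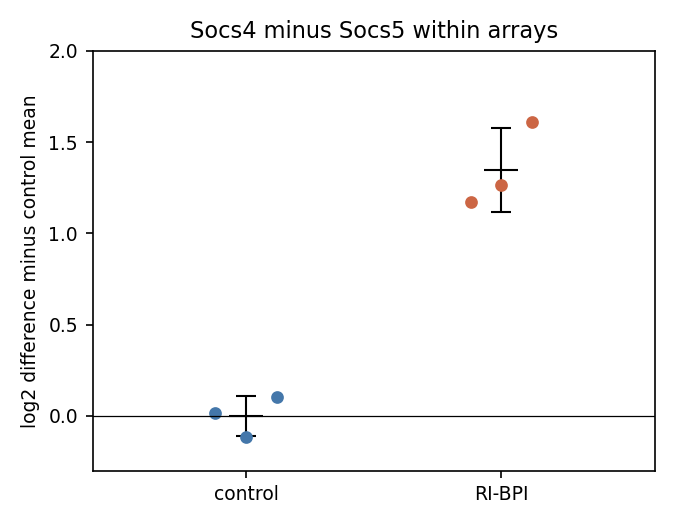
Within-array difference in log2 intensity of Socs4 minus Socs5, shown relative to its control mean (y axis), on control (blue) and RI-BPI (orange) arrays; bars are mean ± SD, n = 3. The RI-BPI arrays lie at 1.17 to 1.61, above all control arrays (-0.12 to 0.10).

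Socs6, an adaptor reported to bind Kit and insulin receptor signalling proteins, had a small change. It read 6.54, 6.63 and 6.66 with control and 6.90, 7.17 and 6.87 with RI-BPI. The groups were 0.20 apart and RI-BPI replicate 2 was the highest array. The rise was 0.37 ± 0.11, from 6.61 ± 0.07 to 6.98 ± 0.17 (1.29-fold, limma adjusted p = 0.00766). It was not called with median centring (0.24, adjusted p = 0.105) or without RI-BPI replicate 2 (0.27, adjusted p = 0.0552). The other 3 Socs6 probes were undetected on all arrays.

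The STAT genes that could be measured fell. Stat5b, Stat5a and Stat3 are neighbours in this order on chromosome 11 of GRCm38.p6. Stat3 read 8.42, 8.34 and 8.50 with control and 7.99, 7.78 and 7.80 with RI-BPI. All RI-BPI arrays were lower, with a gap of 0.35. The fall was 0.56 ± 0.11, from 8.42 ± 0.08 to 7.86 ± 0.12 (1.48-fold lower, limma adjusted p = 0.000184).

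A further Stat3 probe, tied by the annotation to another transcript record of the gene, fell to the same extent, by 0.59 ± 0.11 (adjusted p = 0.000227 over all kept probes). The third, annotated to the same record as the probe used, did not pass (-0.18 ± 0.14, adjusted p = 0.287). It read 7.20, 6.99 and 7.54 with control and 6.96, 6.89 and 7.35 with RI-BPI. At this probe replicate 3 was the highest array of both groups, and the groups overlapped. Its bead standard error, 7.03% to 8.50% of the signal, was similar to that of the probe used, 7.11% to 11.6%.

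Stat5a, which carries growth hormone, prolactin and GM-CSF signals, fell least. It read 6.93, 6.56 and 6.93 with control and 6.53, 6.30 and 6.49 with RI-BPI. The lowest control array was 0.03 above the highest RI-BPI array. The fall was 0.37 ± 0.12, from 6.81 ± 0.21 to 6.44 ± 0.12 (1.29-fold lower, limma adjusted p = 0.0125). The call was lost when control replicate 1 (adjusted p = 0.0706), control replicate 3 (0.0669) or RI-BPI replicate 2 (0.0639) was left out, and with no detection filter (0.0541). A second Stat5a probe was detected on the 3 control arrays and on 0 of the RI-BPI arrays. It was kept only through the control arrays, so a lower reading was fixed by the filter and no test is given. At raw intensities of 49.3 to 57.8 it was too near the detection limit to give a fold. The only Stat5b probe was undetected on all 6 arrays (raw 39.7 to 48.0, detection p 0.213 to 0.916), so the related factor could not be compared.

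**Figure D3:**
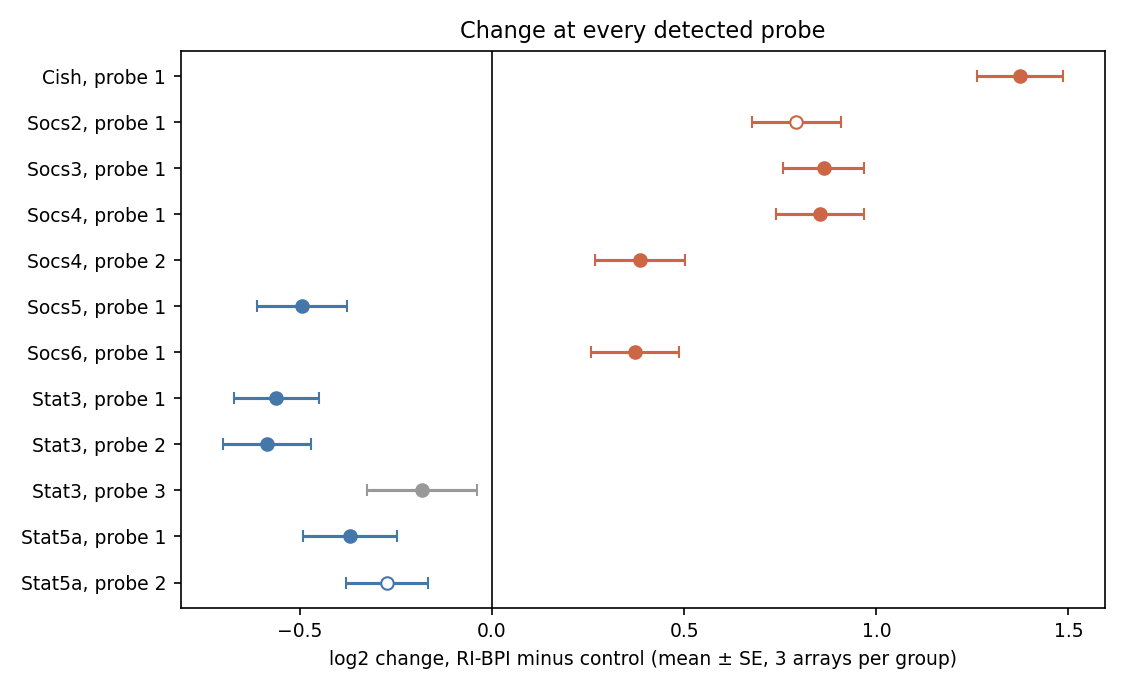
Log2 change, RI-BPI minus control (x axis, mean ± SE, 3 arrays per group), at each of the 12 probes kept for these genes, brightest first within a gene; orange is called higher, blue called lower, grey not called, and open symbols mark probes undetected in a whole group. Of the 12 probes, 6 were called higher, 5 lower and 1, a Stat3 probe, neither. The probes with open symbols were kept through 1 group only and so had to differ.

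Of 19 probes of the 10 genes, 12 were kept. Socs4, Stat3 and Stat5a had more than 1 kept probe, and the fitted changes had the same sign within each gene. The sign of the dimmer Stat5a probe was fixed by the filter, and 1 Stat3 probe was not called. Standard errors of the 8 gene changes ran from 0.10 to 0.12, since limma shares its estimate of spread across genes. The SD between RI-BPI arrays exceeded that between control arrays for 6 of the 8 genes. Each kept probe was read by 22 to 69 beads per array with a bead standard error of 4.08% to 11.6% of the signal.

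The genes whose values over the 6 arrays, centred on the control mean, were nearest to those of Cish were Jade1, Shmt2 and Hgh1, with root mean square differences of 0.05 to 0.07 on the log2 scale. For Stat3 they were Rpap1, Usp12 and Foxred1, at 0.03 to 0.04. With 2 groups of 3 arrays this measure picks genes with a like change between the peptides.

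The rest of the pathway was followed in lists of genes grouped by role. Of 80 measured pathway genes outside the family, 36 rose, 23 fell and 21 were not called, which is 73.8% called against 61.3% of all genes. The 36 include 4 genes and the 23 include 2 genes that were detected in 1 group only and so had to differ to be measured. The median change over all genes was 0.01. The lists were counted and not tested as sets.

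**Figure D4:**
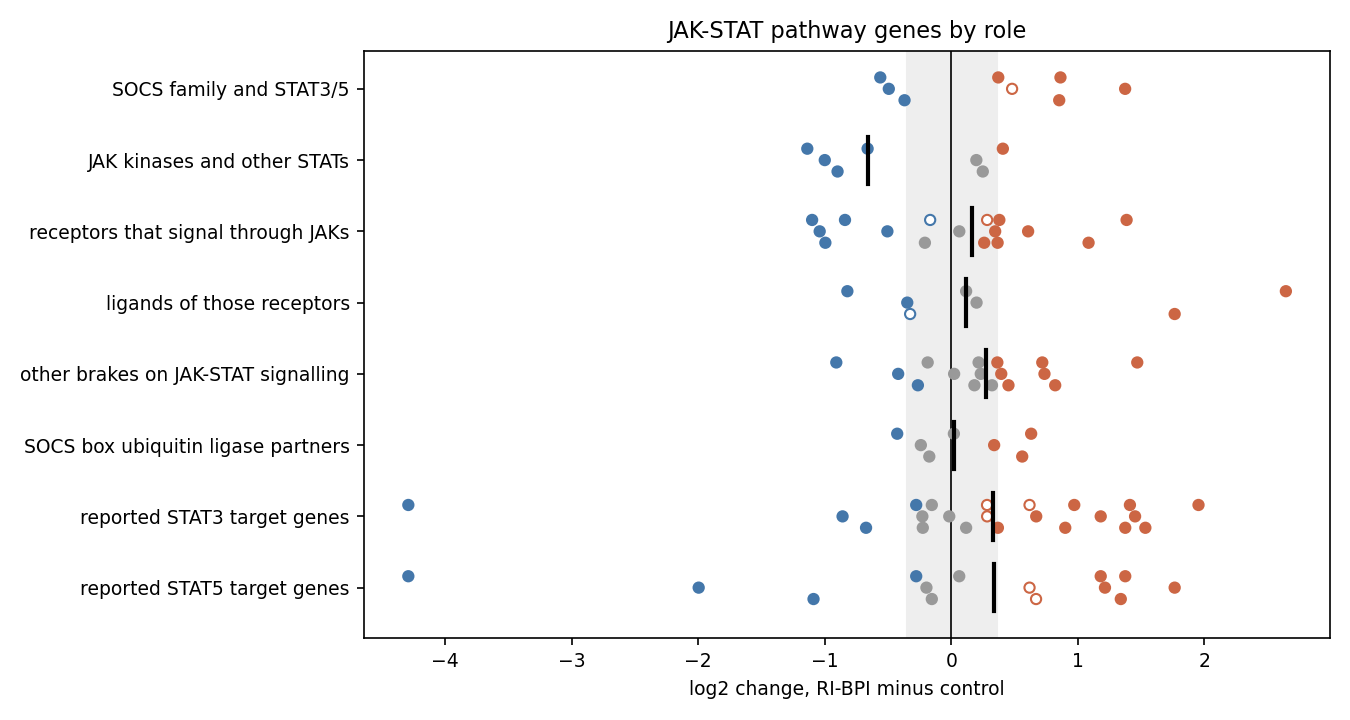
Log2 change, RI-BPI minus control (x axis), of each measured gene in the family and in 7 lists of pathway genes (rows); orange is called higher, blue called lower and grey not called, and open symbols stand at the bound of genes undetected in a whole group. The black bars are list medians and the grey band spans the middle 50% of all genes (-0.35 to 0.36), both with bounds in place; of the 7 medians only that of JAK kinases and other STATs (-0.66) lies outside the band, and no median is drawn for the family.

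Among JAK kinases and other STATs, 1 of 7 measured was higher and 4 were lower (71.4% called), and the median was -0.66. Stat2, the interferon partner of the STAT family, read 10.17, 10.08 and 10.15 with control and 9.18, 9.11 and 8.69 with RI-BPI. It fell by 1.14 ± 0.12 (limma adjusted p = 1.82e-07). The kinase Tyk2, used by interferon and interleukin 10 receptors, read 9.82, 9.56 and 9.69 against 8.65, 8.59 and 8.84. It fell by 1.00 ± 0.11, and for a dimmer probe, not detected on the RI-BPI arrays, the fall was at least 1.38-fold. Stat4, known for interleukin 12 signalling, fell by 0.90 ± 0.11 and Jak3, the kinase of the common gamma chain, by 0.66 ± 0.11, with -0.72 at another Jak3 probe. Jak1 rose by 0.41 ± 0.10, but was not called with median centring (0.24, adjusted p = 0.067). With a background offset of 50 these 3 changes were smaller, at -0.57, -0.42 and 0.26, and still called. Jak2, which serves GM-CSF and growth hormone receptors, was at 0.25 ± 0.13 (adjusted p = 0.105) and Stat6, the interleukin 4 factor, at 0.20 ± 0.11 (adjusted p = 0.122), neither called.

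Receptors that signal through JAKs split, with 8 of 16 measured genes higher, 6 lower (87.5% called) and a median of 0.16. The counts include 1 rise (Il4ra) and 1 fall (Crlf2) of genes detected in 1 group only. Csf2ra, the GM-CSF receptor alpha chain, read 10.35, 10.42 and 10.38 with control and 9.17, 9.56 and 9.13 with RI-BPI, a fall of 1.10 ± 0.12 (limma adjusted p = 1.87e-07). Il6ra, the interleukin 6 receptor, fell by 1.04 ± 0.11 at the probe used and by 0.29 at a dimmer probe, with -0.67 as the mean of both, and Il10ra, the interleukin 10 receptor, fell by 0.84 ± 0.11. Ifngr1, the ligand-binding chain for interferon gamma, fell by 1.00 ± 0.11.

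Il3ra, the interleukin 3 receptor alpha chain, was not called (-0.21 ± 0.10, limma adjusted p = 0.0877). Csf2rb2, the interleukin 3 beta chain of mice, read 9.39, 9.51 and 9.20 against 10.20, 10.46 and 10.70 and rose by 1.09 ± 0.13 (limma adjusted p = 5.68e-07). Csf2rb, the common beta chain, rose by 0.37 ± 0.12, but was not called with median centring (0.24, adjusted p = 0.0772), and as the 2 genes are near-identical copies their signals may not be fully separate. Il6st, which encodes gp130, was called at 0.38 ± 0.15 (adjusted p = 0.0388) although its groups overlapped, and without RI-BPI replicate 1 it was at 0.15 (adjusted p = 0.333). The call on Il6st was also lost when control replicate 1 (adjusted p = 0.15) or 3 (0.106) was left out, without background correction (0.0632), with an offset of 50 (0.0792), with median centring (0.309), in the authors' normalised table (0.0619), with no filter (0.24) and with the mean of probes (0.0713).

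For 2 further receptors the probes disagreed. Ifngr2 rose by 1.39 ± 0.10 at the brightest probe, but other probes gave -0.80 and -0.71 and the mean of its probes was -0.04, so its direction is not settled. Il7r, the interleukin 7 receptor, rose by 0.61 ± 0.11, with 0.50, 0.35 and -0.33 at other probes and 0.28 as the mean of its probes.

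Most ligands were below detection. Probes for 27 were on the array and 7 were measured, with a median of 0.12. Of the 7, 2 were higher and 3 lower (71.4% called), and 1 of the 3, Il27, was detected only with control. Osm, which encodes oncostatin M, a gp130 ligand and reported STAT5 target, read 8.20, 8.58 and 8.20 with control and 10.19, 9.89 and 10.20 with RI-BPI. It rose by 1.77 ± 0.13 (3.40-fold, limma adjusted p = 5.4e-10), with 0.44 at a dimmer probe detected on 1 control and 2 RI-BPI arrays and 1.10 as the mean of both. Ifnb1, interferon beta, rose by 2.64 ± 0.11 from a control level detected on 1 of 3 arrays, and by 1.69 with an offset of 50.

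Il6, interleukin 6, was undetected with control (raw 46.0, 50.1 and 48.9) and detected on 2 of 3 RI-BPI arrays (70.3, 69.3 and 56.2), too few to enter the test. Il10, interleukin 10, was at 0.12 ± 0.12 (limma adjusted p = 0.417), detected on 2 control arrays and 1 RI-BPI array. Lif and Csf2, the genes of leukaemia inhibitory factor and GM-CSF, were undetected on all 6 arrays. Ebi3, a subunit shared by interleukins 27 and 35, fell by 0.82 ± 0.11. Il27, the partner subunit, dropped below detection with RI-BPI, a fall of at least 1.25-fold. Il15, interleukin 15, fell by 0.35 ± 0.11 at the brightest probe, a call lost without RI-BPI replicate 2 (adjusted p = 0.0525). Its other probes fell by 0.63 (adjusted p = 8.28e-05 over all kept probes) and 0.54 (0.000604), and the mean of the 3 probes by 0.51.

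Among 16 measured genes listed as other brakes on JAK-STAT signalling, 62.5% were called, close to the 61.3% among all genes. In this list 7 were higher, 3 lower and 6 not called, and the median change was 0.28. Ptpn6, the phosphatase SHP-1 of blood cells, read 12.17, 12.09 and 12.11 with control and 11.28, 11.18 and 11.18 with RI-BPI. It fell by 0.91 ± 0.10 (limma adjusted p = 3.6e-07), with -0.96 at another probe. Cblb, a ubiquitin ligase for activated receptors, rose by 1.47 ± 0.12, the adaptor Sh2b2 by 0.82 ± 0.11 and the SUMO ligase Pias4 by 0.74 ± 0.11. A further Sh2b2 probe, undetected with control, rose at least 1.27-fold, and another Pias4 probe was not called (0.11), with 0.42 as the mean of both Pias4 probes. Pdlim2, a nuclear ubiquitin ligase for STAT proteins, fell by 0.42 ± 0.12. Pias3, an inhibitor of STAT3, was called at -0.26 ± 0.11 (adjusted p = 0.0426), and this was lost without control replicate 2 (0.108) or 3 (0.123), without RI-BPI replicate 2 (0.0684) or 3 (0.14) and with a replicate block (0.0523). Socs7, the SOCS gene nearest to Socs6, was not called (-0.19 ± 0.12, adjusted p = 0.197) and was detected on 1 of 3 RI-BPI arrays.

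Of 7 measured partners in the ubiquitin ligase that SOCS boxes recruit, 3 were higher and 1 lower (57.1% called), with a median of 0.02. Cul5, the cullin of SOCS ligases, read 7.25, 7.31 and 7.45 with control and 7.95, 7.82 and 7.93 with RI-BPI. It rose by 0.56 ± 0.11 (limma adjusted p = 0.000157). Ube2f, which attaches NEDD8 to Cul5, rose by 0.63 ± 0.11, with 0.45, 0.25 and -0.03 at other probes and 0.33 as the mean of its probes. Eloc, which encodes the elongin C that links SOCS box and cullin, was called at 0.34 ± 0.11, but not with median centring (adjusted p = 0.0874) or without control replicate 2 (0.0609). Cul2 was called at -0.43 ± 0.11, with -0.27 at an offset of 50, but not as the mean of its probes (-0.14, adjusted p = 0.205).

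Genes reported as STAT targets moved in both directions. Among 22 measured STAT3 targets there were 13 increases and 4 decreases (77.3% called, against 61.3% of all genes). But 3 of the increases (Myc, Il4ra and Timp1) were of genes measured only through the RI-BPI arrays, which leaves 10 of 19. The median of the 22 was 0.40, and 0.33 with the bound in place of the fitted value where a group was undetected. Among 14 STAT5 targets there were 7 increases and 4 decreases (78.6% called). Of these, 2 increases (Myc and Id1) entered in the same way, which leaves 5 of 12. The median was 0.43 (0.34 at the bound), and 6 genes stood in both lists. The kinase gene Pim1, a target of both factors, read 5.31, 5.40 and 5.53 with control and 6.83, 6.85 and 6.68 with RI-BPI. It rose by 1.37 ± 0.11 (limma adjusted p = 2.56e-09), and by 0.91 with an offset of 50. Pim3 rose by 1.45 ± 0.11 and the NF-kB inhibitor Tnfaip3 by 1.53 ± 0.10. Il1rn, the interleukin 1 receptor antagonist, rose by 1.95 ± 0.11, with 0.92 and 1.44 at other probes and 1.44 as the mean of its probes. Id2, an inhibitor of helix-loop-helix factors, rose by 1.34 ± 0.11, with 1.02 and 0.81 at other probes and 1.05 as their mean with the probe used.

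The targets that fell most were D-type cyclins. Ccnd1, in both lists, fell by 4.29 ± 0.11 and Ccnd3 by 2.00 ± 0.11. Another Ccnd1 probe fell by 4.34, and a dimmer one, not detected on the RI-BPI arrays, by at least 2.52-fold. The mean of the Ccnd1 probes fell by 3.51. Tnfrsf13b, which encodes the receptor TACI, fell by 1.09 ± 0.11 and Fos by 0.67 ± 0.11. Etv3, a repressor induced by interleukin 10, fell by 0.86 ± 0.23, but by 0.42 without RI-BPI replicate 3 and 0.54 with an offset of 50, and was not called with no filter (adjusted p = 0.11). These lists hold genes with many other regulators, and the activity or phosphorylation of STAT proteins was not measured.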

How the data were processed

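The members and gene lists were chosen with earlier results of these data known. The authors deposited mean bead intensity per probe and array, not normalised per the file headers. Further columns deposited there give, per the file headers, a detection p-value, the bead standard error as a signal value and the count of beads. The submitters' processing notes name GenomeStudio, and no genome build is stated in the labels or headers. A second deposited table of normalised intensity, by a method the labels do not state, served as an alternative. Its columns had medians of 46.3 and ranked the probes as their own arrays did.

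Background was corrected by normexp in limma (version 3.58.1, R 4.3.3) from the detection p-values with an offset of 16, then quantile normalised and taken to log2. An offset pulls changes of dim probes towards 0. The changes of Cish and Socs2 were still larger than without background correction (1.37 against 1.02 and 0.79 against 0.43). Probes detected at p under 0.01 on at least 3 of 6 arrays were kept (13975). Of 45281 probes 34885 had 1 gene symbol, 18 several and 10378 none, and the symbols of all 10 members matched RefSeq (GRCm38.p6) by Entrez identifier. The brightest kept probe stood for a gene. RI-BPI was compared with control by lmFit and eBayes (4 residual degrees of freedom before moderation), two-sided, with Benjamini-Hochberg adjustment, a procedure also tested on simulated data. Where a group was undetected on its 3 arrays, the change is a bound against the lowest detected signal of each array. The named genes are all members, all JAK and STAT genes listed, chosen receptors and ligands of STAT3 and STAT5, and in each list up to 3 called genes with the largest rise and fall whose groups did not overlap; Socs7 and the Cish- and Stat3-like genes were added by family and by likeness. Alternatives were other backgrounds, scalings, filters, probe rules, a variance trend, a replicate block and leaving out each array. The number of arrays limits the precision.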

Additional observations from a re-analysis of the deposited data

How the results depend on the processing

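Across 15 alternatives, Cish, Socs3, Socs4, Socs5 and Stat3 kept their direction and call. Socs2 stayed higher in the 14 that could give it a value, but a difference was fixed by the filter. Cish ranged from 0.98 to 1.37 over the settings on all arrays and from 1.29 to 1.42 with an array left out. Calls were lost for Socs6 with median centring (0.24) and for Stat5a with no filter, where its change of -0.37 was adjusted over 19057 genes. With an array left out, Socs6 ranged from 0.27 to 0.43, Stat5a from -0.50 to -0.30 and the member probes called lower from 3 to 5. Detection on all 6 arrays dropped Socs2. Of 626 values for 42 named pathway genes, 21 lost their call and 1, Ifngr2 at -0.040 with the mean of probes, turned direction. Median centring moved the median of all genes from 0.01 to -0.08. The difference of Socs4 and Socs5 ran from 1.09 to 1.43 and could not reach an exact p under 0.1. Whether the replicate numbers pair the arrays was not settled. Deviations of same-numbered arrays correlated only at 0.02, 0.002 and 0.03, but 4 of 6 arrays correlated best with their own number. With the replicate block 2533 genes were higher and 2527 lower, against 2518 and 2513 without it, and members stayed at 5 and 3. Whether undetected genes (Socs1, Stat5b) changed is beyond what signal over background allows.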

Other observations

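In the lists of reported STAT targets, 4 genes were undetected on all control arrays and detected on all RI-BPI arrays, a feature by which they were picked after their values were seen. Id1, an inhibitor of helix-loop-helix factors, rose at least 1.59-fold and Myc, the growth regulator, at least 1.54-fold. Il4ra, the interleukin 4 receptor alpha chain, and Timp1, an inhibitor of matrix metalloproteinases, each rose at least 1.22-fold. They were measured only through the RI-BPI arrays, so a difference was fixed by the filter and no test is given.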
